A study of Homo sapiens with 6 samples.

Results

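Sprouty and Spred proteins and the dual-specificity phosphatases DUSP4, DUSP5 and DUSP6 are inhibitors that act back on the RAS to ERK cascade. The genes described here are SPRY1, SPRY2, SPRY4, SPRED1, SPRED2, DUSP4, DUSP5 and DUSP6, chosen as all probes that carry one of these 8 names in the array files. They were measured by 10 probes, among the 36469 probes with 27328 gene names that passed the filter on missing spots. SPRED1 and SPRED2 had 2 probes each and the other 6 genes had 1 probe each. None of the 8 genes and none of the 10 probes differed between pre-miR-27a and pre-control arrays at an adjusted p under 0.05, against 7.40% of all gene names and 7.83% of all probes, so that a count of 0 among so few is near the background. SPRY1 and DUSP6 were both 1.29-fold higher on pre-miR-27a arrays, and higher in each of the 3 replicates. Both passed that threshold only when arrays of the same replicate number were paired. With this pairing 3846 of all gene names (14.1%) passed, of which 1837 passed without it too. SPRY2, SPRY4, SPRED1 and SPRED2 gave small differences whose intervals included 0, and DUSP4 and DUSP5 gave lower values that did not pass the test.

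In growing cells, growth factor receptors switch on RAS, which signals through RAF and MEK kinases to ERK, and ERK drives the transcription of its own inhibitors. Sprouty proteins act between the receptor and RAF, Spred proteins bring neurofibromin, which switches RAS off, to the membrane, and the nuclear phosphatases DUSP4 and DUSP5 and the cytoplasmic phosphatase DUSP6 remove the activating phosphates of ERK and, for DUSP4, of related kinases. Because these genes are induced by ERK, their transcripts are often read as a sign of the activity of the pathway. Embryonal rhabdomyosarcoma is a tumour of skeletal muscle type in which the RAS pathway is often mutated.

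The cells were RH36, an embryonal rhabdomyosarcoma line that lacks the PAX3/FOXO1 translocation. One group received pre-miR-27a, a precursor molecule that raises miR-27a (n = 3), and the other a negative pre-control molecule (n = 3). According to the labels the precursor was used at 10 nM and the pre-miR-27a cells were taken at 48 hours. For the pre-control cells the labels also give 10 nM but no time. The study's methods give another dose and time, and the labels and methods also name different transfection reagents, SiPORT and Lipofectamine. Which of these the arrays had could not be settled. All values come from 1 line, and the labels call the arrays biological replicates without saying whether the transfections were separate, so p-values measure the spread between these samples only. Each sample was labelled with Cy3 and hybridized to its own array of 60-base probes.

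The question asked of these genes is whether raising miR-27a changed the transcripts of the ERK feedback inhibitors, of which SPRY2 has been described as a miR-27a target in other tumour cells. The mature miR-27a-3p made from the precursor is given here with its paralog miR-27b-3p and with miR-23a-3p of the same cluster, since the seed, bases 2 to 8 from the 5′ end, decides most target pairing. Capitals mark the seed, and the sequences are those of RefSeq on GRCh38.p14.
hsa-miR-27a-3p: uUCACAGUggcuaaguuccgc
hsa-miR-27b-3p: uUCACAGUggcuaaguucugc
hsa-miR-23a-3p: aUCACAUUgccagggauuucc
The miR-27a-3p sequence lies at chr19:13836447-13836467 on the minus strand and miR-27b-3p at chr9:95085505-95085525 on the plus strand. Both carry the same seed, which 3 of 2545 mature miRNAs in the table hold, and miR-23a-3p carries another. Sites for this seed in the transcripts of the 8 genes were not analysed here. The arrays measured transcripts, so an effect on protein without a change of transcript was not measured.

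Each group of 3 arrays had a slide of its own, so the slide cannot be told apart from the transfection. The local background had medians of 74.5 to 76 intensity units in the control group and 52.5 to 53 with pre-miR-27a, a difference of 22.8 units. Signals well above background were found for 69.9% to 73.9% of spots on the former and 74.1% to 78% on the latter, of 43376 spots per array, with 0 saturated. Spots flagged as not found, whose signals were left out, were more frequent with pre-miR-27a. They numbered 1559 to 1750 per pre-control array and 3487 to 4153 per pre-miR-27a array. The number of arrays limits the precision, since log2 fold changes had a standard error of 0.14 in the median over all probes, and the smallest two-sided p of an exact permutation test with 3 arrays a group is 0.1. The smallest log2 fold change that passed the test on any probe was 0.32 in size. Of the 6 muscle markers MYOD1, MYOG, DES, CDH15, CHRNA1 and MYF5, the first 5 were well above background on all 6 arrays, and MYF5 was removed by the filter on missing spots. By the brightest probe of each, these 5 had log2 fold changes below 0, with a median of −0.35. Of the 5, 0 passed the test, against 7.40% of all gene names. With the replicate block 3 passed, all lower (MYOD1, MYOG and CDH15), against 14.1% of all gene names. A second CHRNA1 probe was higher on pre-miR-27a arrays (0.95, adjusted p = 0.0216), while the brightest CHRNA1 probe gave −0.15. Among markers of other cell types, CDH1, PTPRC and PECAM1 were not well above background on any array. CD3E and the brightest GFAP probe were on all 6, whereas the other GFAP probes were not on any array. The brightest CD3E probe was lower on pre-miR-27a arrays (−0.44, adjusted p = 0.0348). The other CD3E probe gave −0.05 (adjusted p = 0.874). The part of the slide, the background and these markers in the members' values was not tested.

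On each of the 6 arrays, all 10 member probes gave signals well above background, and none was saturated or held an outlier spot. Probes differ in how strongly they bind and label, so the intensity of one gene was not set against that of another and no order of the genes by level is given. The processed intensity at the SPRY2 probe ranged from 11480 to 17320 units over the 6 arrays, that at the DUSP6 probe from 22050 to 26880 and that at the SPRY4 probe from 4526 to 8099. The SPRY1 probe gave 3988 to 6058 units and the DUSP4 probe 3396 to 5777. Each of these ranges lies far above the local background. The DUSP5 probe gave 148.6 to 231.6 units, and the dimmer probes of SPRED1 and SPRED2 gave 99.6 to 205.5 and 42.56 to 69.36 units. The difference in local background between the groups, 22.8 units, is closest in size to the signal of the dimmer SPRED2 probe.

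SPRY1 encodes a Sprouty protein that restrains receptor signalling in muscle stem cells and other tissues. Its probe (NM_199327, chr4:124543944-124544003 on hg18, plus strand) gave log2 intensities of 12.31, 11.94 and 12.14 on pre-control replicates 1, 2 and 3, and 12.66, 12.36 and 12.47 on pre-miR-27a replicates 1, 2 and 3. The lowest pre-miR-27a array exceeded the highest control array, and in both groups replicate 1 was highest and replicate 2 lowest. The mean was 12.13 ± 0.18 (SD, n = 3) in the control group and 12.50 ± 0.15 (SD, n = 3) with pre-miR-27a, a log2 fold change of 0.37 (SE 0.13, 95% interval 0.04 to 0.70). With limma the adjusted p was 0.162. The differences within replicate numbers were 0.35, 0.42 and 0.34, and pairing arrays by replicate number narrowed the interval to 0.21 to 0.53 and the adjusted p to 0.0398. The 2-sided exact permutation p was 0.1, the smallest that 3 arrays against 3 can give. With 1 array left out, SPRY1 kept an unadjusted p from limma under 0.05 in 2 of 6 fits. Its log2 fold changes there were 0.27 to 0.46, with adjusted p of 0.133 to 0.353. With all arrays, 23.8% of all gene names had an unadjusted p from limma under 0.05.

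SPRY2 encodes the Sprouty protein best known for blocking RAS and RAF activation downstream of fibroblast growth factor receptors. Its probe (NM_005842, chr13:79808623-79808682 on hg18, minus strand) gave 13.53, 13.41 and 13.99 on pre-control replicates 1, 2 and 3 and 13.60, 13.66 and 13.83 on the pre-miR-27a replicates. The groups overlapped, and replicate 3 was the highest array of either group. The mean was 13.64 ± 0.31 (SD, n = 3) in the control group and 13.70 ± 0.12 (SD, n = 3) with pre-miR-27a. This gave a log2 fold change of 0.05 (SE 0.17) and an adjusted p from limma of 0.886. Its 95% interval ran from −0.37 to 0.48, that is from 0.773-fold to 1.40-fold. A fall of the SPRY2 transcript to below 0.773-fold lies outside this interval, while smaller falls, and rises up to 1.40-fold, lie within it. Pairing the replicates gave an adjusted p of 0.726 and an interval of −0.24 to 0.35. Scaling the arrays by their 75th percentile turned the difference to −0.03, and so did leaving out pre-control replicate 1 (−0.002), pre-control replicate 2 (−0.061) or pre-miR-27a replicate 3 (−0.015). Without pre-control replicate 3 it was 0.23, with an adjusted p of 0.311.

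SPRY4 encodes a Sprouty protein that acts on receptor-driven RAF activation and is a common readout of ERK output. The SPRY4 probe (NM_030964, chr5:141670755-141670814 on hg18, minus strand) gave 12.22, 12.66 and 12.90 on pre-control replicates 1, 2 and 3 and 12.21, 12.75 and 12.75 on the pre-miR-27a replicates. Replicate 1 was the lowest array in both groups, and the spread within a group exceeded the difference between the groups. The difference was −0.02 on the log2 scale (SE 0.23, 95% interval −0.60 to 0.56), with an adjusted p of 0.968. The block narrowed the interval to −0.24 to 0.19, with an adjusted p of 0.852. The sign of this small difference changed with background correction by the normexp method (0.0087) and when pre-control replicate 2 (0.0092), pre-control replicate 3 (0.13) or pre-miR-27a replicate 1 (0.16) was left out.

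**Figure D1:**
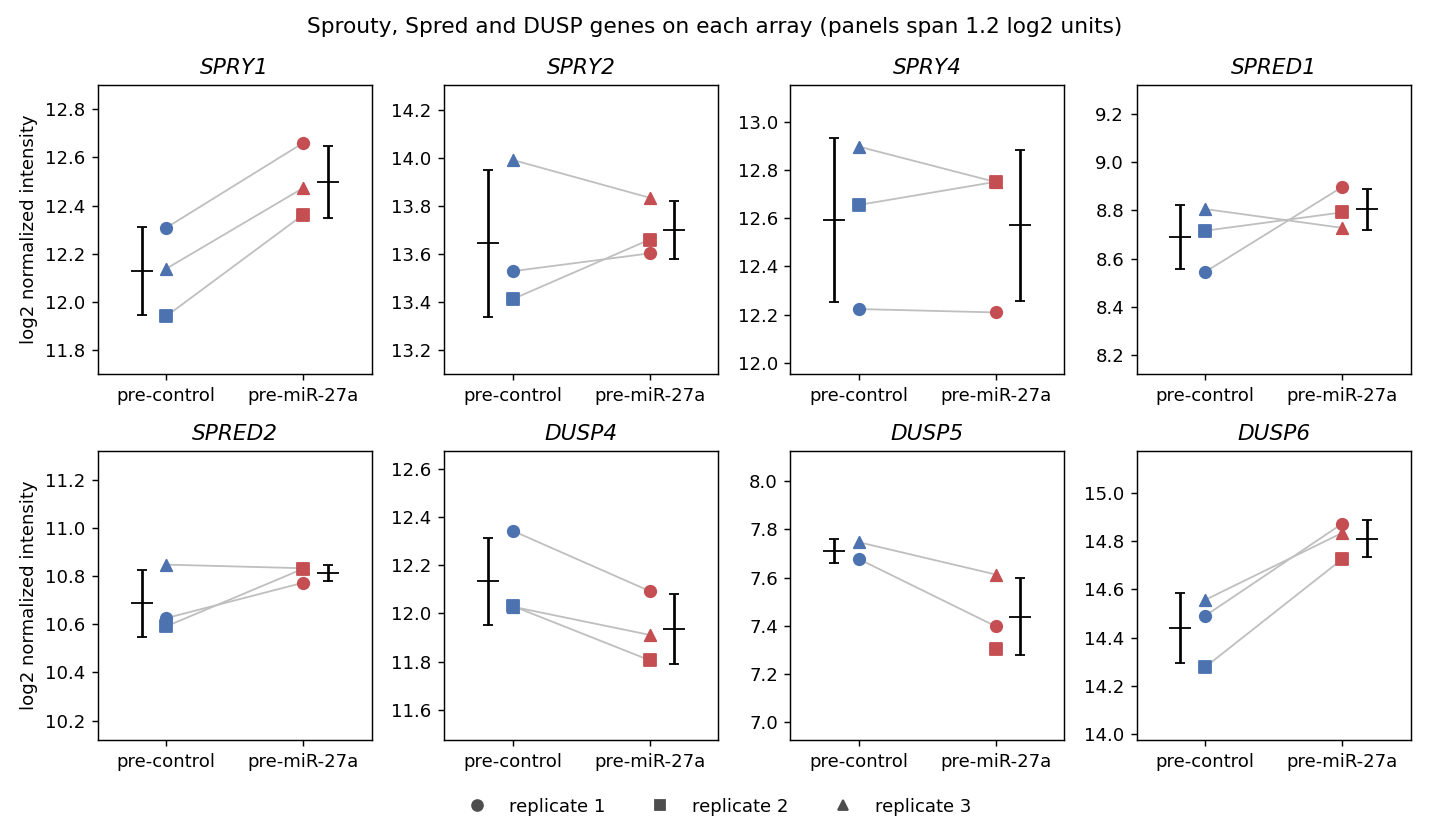
Log2 quantile-normalized intensity (vertical axes) of the 8 genes on the 3 pre-control arrays (blue) and the 3 pre-miR-27a arrays (red), each gene by its brightest probe. Symbols give the replicate number, grey lines join arrays of the same number, and black bars are the mean ± SD. The lines of SPRY1 and DUSP6 run upward in all 3 replicates and those of DUSP4 downward, while SPRY2 and SPRY4 follow the replicate number more than the transfection. DUSP5 lacks pre-control replicate 2, whose spot was not found.

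SPRED1, which recruits neurofibromin to RAS and is mutated in Legius syndrome, was measured by a pair of probes. The brighter SPRED1 probe (NM_152594, chr15:36433052-36433111 on hg18, plus strand) gave 8.55, 8.72 and 8.81 on pre-control replicates 1, 2 and 3 and 8.90, 8.79 and 8.73 on the pre-miR-27a replicates. The groups overlapped, and the replicates did not move in one direction, with differences of 0.35, 0.08 and −0.08. Together they gave a log2 fold change of 0.12 (SE 0.10, 95% interval −0.13 to 0.37), with an adjusted p of 0.539. The dimmer SPRED1 probe, at chr15:36431184-36431243, gave 7.52, 7.02 and 7.00 in the control group and 7.18, 7.06 and 6.73 with pre-miR-27a. Its log2 fold change was of the opposite sign, at −0.19 (SE 0.19, 95% interval −0.67 to 0.29, adjusted p = 0.608). Neither SPRED1 probe passed the test, and the mean of both gave −0.04.

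SPRED2, a Spred protein of the same kind, gave a similar picture. Its brighter probe (NM_181784, chr2:65392355-65392414 on hg18, minus strand) gave 10.63, 10.59 and 10.85 on pre-control replicates 1, 2 and 3 and 10.77, 10.83 and 10.83 with pre-miR-27a. The log2 fold change was 0.12 (SE 0.10, 95% interval −0.11 to 0.36, adjusted p = 0.492), and the control value of replicate 3 was the highest of all 6. The dimmer SPRED2 probe, at chr2:65415300-65415359, gave 5.93, 5.77 and 5.78 in the control group and 5.46 and 5.77 on pre-miR-27a replicates 1 and 2. On pre-miR-27a replicate 3 its spot was flagged as not found and left out, and its signal there was 5.66. Its log2 fold change was −0.21 (SE 0.14, 95% interval −0.57 to 0.15, adjusted p = 0.421). The mean of both SPRED2 probes gave −0.04, so the direction of either Spred gene depended on which probe was read.

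DUSP4 encodes a nuclear phosphatase of ERK, JNK and p38 kinases. The DUSP4 probe (NM_001394, chr8:29250301-29250360 on hg18, minus strand) gave 12.34, 12.03 and 12.03 on pre-control replicates 1, 2 and 3 and 12.09, 11.81 and 11.91 on the pre-miR-27a replicates. The groups overlapped through pre-miR-27a replicate 1, yet the pre-miR-27a array was the lower one within each replicate number, by −0.25, −0.23 and −0.12. The log2 fold change was −0.20 (SE 0.13, 95% interval −0.52 to 0.13), with an adjusted p of 0.417. Leaving out pre-control replicate 1, the highest array, moved it to −0.09. Pairing the replicates narrowed the interval to −0.37 to −0.03, with an adjusted p of 0.107.

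DUSP5 encodes a nuclear phosphatase specific for ERK. The DUSP5 probe (NM_004419, chr10:112260890-112260949 on hg18, plus strand) gave 7.68 and 7.75 on pre-control replicates 1 and 3 and 7.40, 7.31 and 7.61 on pre-miR-27a replicates 1, 2 and 3. Its spot was flagged as not found on pre-control replicate 2 and left out of the fit. The 2 control values lay above the 3 pre-miR-27a values, but the left-out signal of 7.48 lies within the range of the latter. The log2 fold change was −0.27 (SE 0.13, 95% interval −0.61 to 0.06, adjusted p = 0.273), and −0.20 when the flagged spot was kept.

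DUSP6 encodes the cytoplasmic phosphatase that acts specifically on ERK and is widely used as a readout of its activity. The DUSP6 probe (NM_001946, chr12:88266275-88266334 on hg18, minus strand) gave 14.49, 14.28 and 14.56 on pre-control replicates 1, 2 and 3 and 14.87, 14.73 and 14.83 on the pre-miR-27a replicates. Every pre-miR-27a value was above every pre-control value, and replicate 2 was the lowest array in both groups. The mean was 14.44 ± 0.15 (SD, n = 3) in the control group and 14.81 ± 0.08 (SD, n = 3) with pre-miR-27a. The log2 fold change was 0.37 (SE 0.10, 95% interval 0.11 to 0.63), with an adjusted p of 0.0936 from limma. The differences within replicate numbers were 0.38, 0.45 and 0.28, and with the block the interval was 0.19 to 0.55 and the adjusted p 0.0463. The 2-sided exact permutation p was 0.1, again the smallest possible. DUSP6 kept an unadjusted p from limma under 0.05 when any of the 6 arrays was left out, with log2 fold changes of 0.29 to 0.42 and adjusted p of 0.120 to 0.238. Such an unadjusted p was held by 23.8% of all gene names with all arrays. The share with 1 array left out was not counted, so this is not particular to DUSP6. Scaling the arrays by their 75th percentile lowered it to 0.23, with an adjusted p of 0.141.

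**Figure D2:**
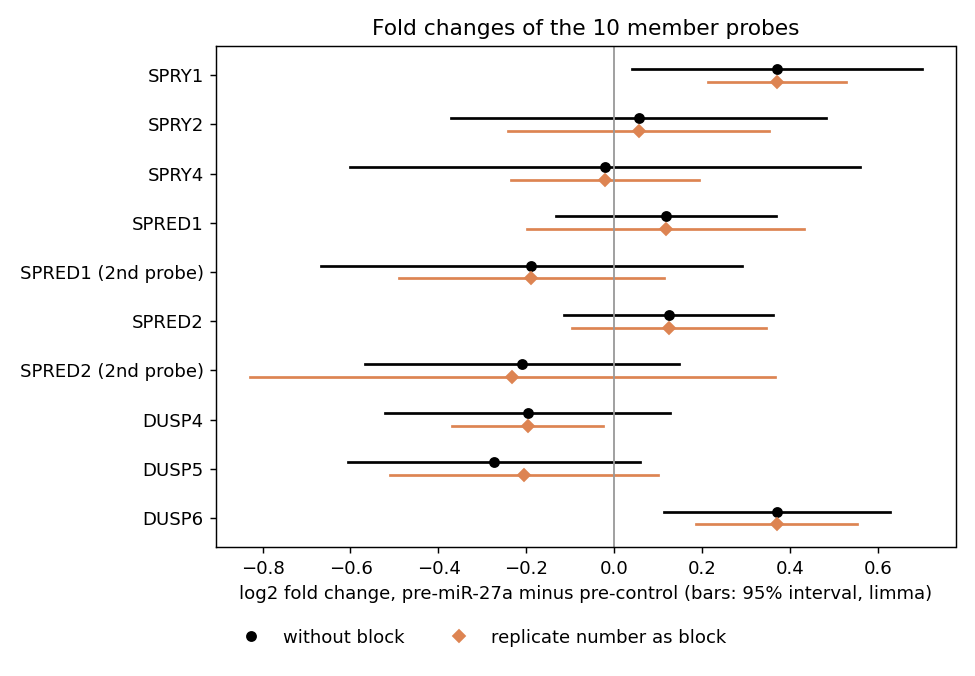
Log2 fold change of the 10 probes (horizontal axis, pre-miR-27a minus pre-control) with 95% intervals from limma, without the block (black circles) and with the replicate number as a block (orange diamonds). Without the block, the intervals of SPRY1 and DUSP6 lie above 0 and the other 8 include 0. With it, the interval of DUSP4 lies below 0 as well, and only SPRY1 and DUSP6 have an adjusted p under 0.05.

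Counted together, 0 of the 8 genes passed the test at an adjusted p under 0.05, against 7.40% of all gene names read by their brightest probe, and 0 of 10 probes against 7.83% of all probes. At an unadjusted p under 0.05 there were 2 genes, SPRY1 and DUSP6, against 6495 of all gene names (23.8%). With the replicate block 2 of 8 passed, both higher, against 14.1% of all gene names. The groups did not overlap for 3 of 8, SPRY1 and DUSP6 higher and DUSP5 lower, against 31.5%. For DUSP5 this rests on 2 control arrays, since the left-out signal of pre-control replicate 2 (7.48) lies within the pre-miR-27a range. With 8 genes, these counts lie near the background shares and are no result about the members. The fold changes were above 0 for 5 genes and below 0 for 3, with a median of 0.09, where all gene names had a median of −0.04. Among the phosphatases, DUSP6 was higher on pre-miR-27a arrays with the block, while the DUSP4 and DUSP5 differences were negative and did not pass with or without it.

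The genes around the members were described in the same way, with each gene read by its brightest probe. The other Sprouty genes and mitogen-activated kinase phosphatases on the array were SPRY3, DUSP1, DUSP2, DUSP7, DUSP8, DUSP9, DUSP10 and DUSP16, and SPRED3 had no probe under that name. None of these 8 passed the test without the block, against 7.40% of all gene names, or with it, against 14.1%. Their log2 fold changes ran from −0.52 for DUSP7, a phosphatase of ERK, to 0.12 for DUSP16, a phosphatase of JNK and p38. The DUSP7 probe was dim, at 21.37 to 52.83 units, where the local background of the groups differed by 22.8 units. Its spot was not found on pre-miR-27a replicate 1. Of the 8, 6 were below 0, and the median was −0.34, against 0.09 for the members. The groups did not overlap for 4 of the 8, DUSP7 among them, and for 3 of the members, against 31.5% of all gene names. With so few genes, these counts are no result about either list. The dimmest of the 3 DUSP8 probes passed the test without the block (−0.43, adjusted p = 0.0393) but not with it (adjusted p = 0.0510), and the others gave −0.40 and −0.12 and did not pass.

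Of 10 binding partners and regulators of Sprouty and Spred proteins (NF1, CBL, GRB2, PTPN11, CAV1, TESK1, DYRK1A, SIAH2, NEDD4 and LZTR1), 1 passed the test. Over all gene names the share was 7.40%. The gene that passed was CAV1, which encodes the membrane scaffold caveolin-1 and fell by 0.83 on the log2 scale (SE 0.15, adjusted p = 0.0376). Its probe gave 4.78, 5.14 and 4.94 in the control group and 4.30, 4.20 and 3.88 with pre-miR-27a. These signals are near the background, were well above it on only some arrays, and a second CAV1 probe gave −0.08. The median of the 10 partners was −0.04. NF1, the neurofibromin that Spred proteins recruit, gave −0.24 (adjusted p = 0.141) at its brightest probe and −0.28 and 0.45 at the others, none of which passed.

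Of 8 genes of the cascade from RAS to ERK (HRAS, NRAS, SOS1, ARAF, BRAF, MAP2K1, MAP2K2 and MAPK3), 1 passed the test. Over all gene names the share was 7.40%. MAP2K2, which encodes the ERK kinase MEK2, gave 13.48, 13.35 and 13.27 on pre-control replicates 1, 2 and 3 and 12.77, 12.75 and 12.63 on the pre-miR-27a replicates. The groups lay clearly apart and each replicate was lower. The log2 fold change was −0.65 (SE 0.09), or 0.638-fold, with an adjusted p of 0.0219 without and 0.0334 with the block. MAP2K1, which encodes MEK1, gave 0.02 (adjusted p = 0.964). Of the 8 genes, 2 had a difference above 0 and 6 below it, and the median was −0.03. The highest value was 0.17 for NRAS, a RAS protein (adjusted p = 0.329).

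**Figure D3:**
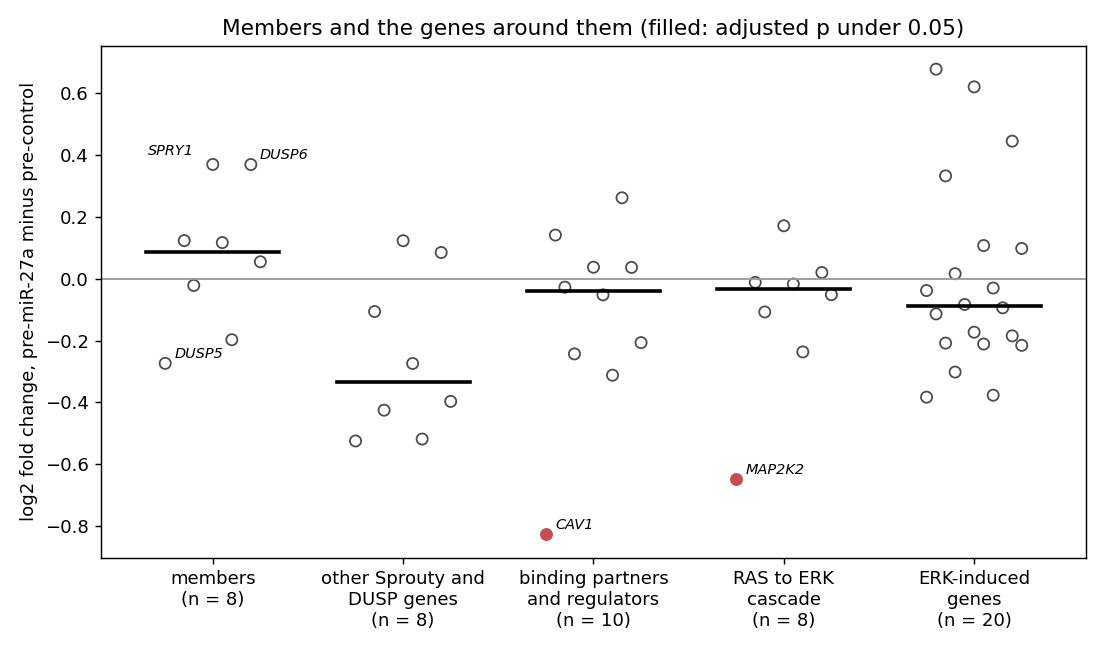
Log2 fold change (vertical axis, pre-miR-27a minus pre-control) of the 8 members, 8 other Sprouty and DUSP genes, 10 partners and regulators, 8 genes of the RAS to ERK cascade and 20 ERK-induced genes. Each circle is 1 gene by its brightest probe, filled where the adjusted p from limma is under 0.05, with horizontal position inside a column for legibility only, and black bars are medians. The filled circles are CAV1 and MAP2K2, both below 0, and no member is filled.

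Because the members are induced by ERK, 20 other genes that ERK signalling is known to induce were set beside them, among them the ETS factors ETV1, ETV4 and ETV5, the immediate early genes EGR1, EGR2, EGR3 and FOS, and CCND1, which encodes cyclin D1. None of the 20 passed the test, against 7.40% of all gene names, and the groups overlapped for all 20, where they did not for 31.5% of all gene names. Their median log2 fold change was −0.09. The lowest was EGR1 (−0.38, adjusted p = 0.585) and the highest EPHA4, an ephrin receptor (0.68, adjusted p = 0.393). With the block 2 of the 20 passed, against 14.1% of all gene names, both higher: EPHA4 (adjusted p = 0.0364) and CCND1 (0.62, adjusted p = 0.0374). Probes of the same gene disagreed, since the other CCND1 probes gave 0.69 and −0.21, and the other EPHA4 probes gave −0.05 and −0.08. The CCND1 probe with 0.69 passed with the block as well (adjusted p = 0.0431), and the remaining ones did not. One of the 3 MYC probes was lower on pre-miR-27a arrays (−1.07, adjusted p = 0.0195), where the brightest gave −0.09 and the dimmest −0.07 and neither passed. The brightest LIF probe gave −0.21 and did not pass. A dimmer LIF probe passed (−1.54, adjusted p = 0.0299, and 0.0461 with the block), but it had no pre-miR-27a array with a signal well above background.

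For SPRY2, SPRY4, SPRED1, SPRED2 and DUSP4, the range over the control arrays exceeded the difference between the groups. Some ERK-induced genes shared the highest or the lowest replicate with SPRY2 or SPRY4. By their brightest probes, ETV1 shared the full order of replicates of SPRY2 in both groups, and MAFF that of SPRY4. EGR1, EGR2 and ETV4 shared only the highest or the lowest replicate. EGR1 gave 10.83, 10.89 and 11.95 on pre-control replicates 1, 2 and 3 and 10.52, 10.70 and 11.31 on the pre-miR-27a replicates. Replicate 3 was highest in both groups, as it was for SPRY2. EGR2 showed it too, with 6.39, 6.43 and 7.85 against 6.46, 6.44 and 7.25. SPRY4 and ETV4, an ETS factor, were instead lowest on replicate 1 in both groups, ETV4 with 10.503, 10.999 and 10.751 against 10.429, 11.034 and 10.701. These genes were picked for this likeness after their values were seen, and what sets replicate 3 apart was not tested.

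Over the 6 arrays, the genes whose brightest probe followed SPRY2 most closely were ARHGAP12 (Pearson r = 0.977), AFF1 (0.974) and CLDN5 (0.952), among 10223 genes well above background on all arrays. With so many genes and 6 arrays, values of this size describe the arrays only. Of the other members, SPRED2 followed SPRY2 most closely (r = 0.851), then SPRY4 (0.598), DUSP5 (0.487, over 5 arrays), DUSP6 (0.431), SPRED1 (0.337), SPRY1 (0.161) and DUSP4 (−0.349). The arrays share slide, transfection and replicate number, which enter all of these values.

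**Figure D4:**
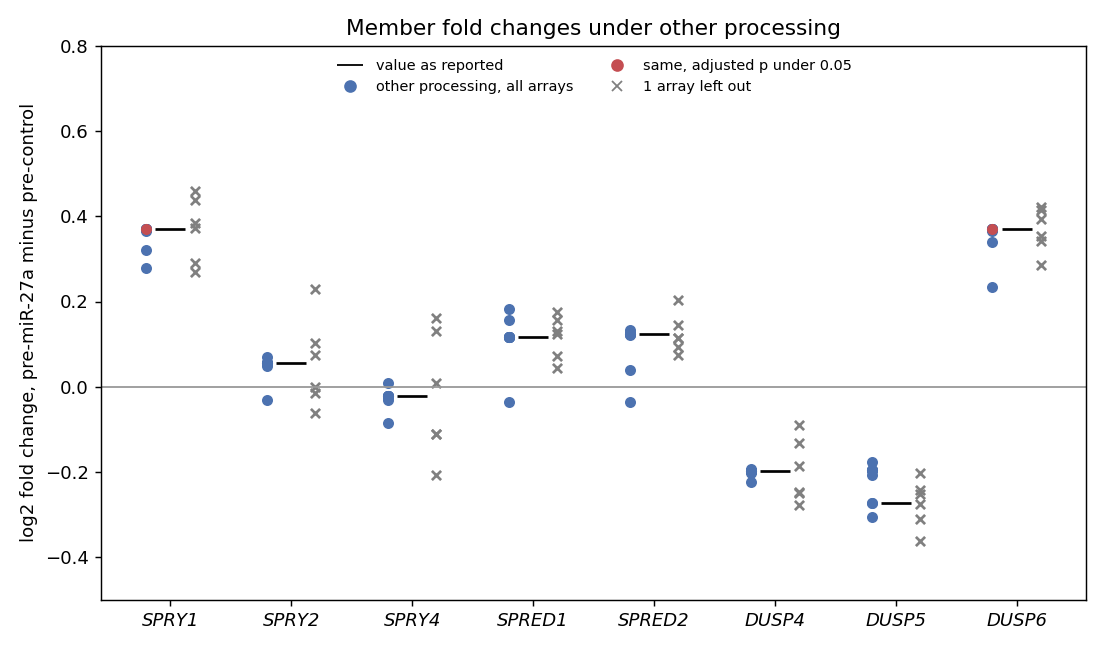
Log2 fold change (vertical axis, pre-miR-27a minus pre-control) of the 8 members as reported (black bars), under other processing of all 6 arrays (blue circles, red where the adjusted p is under 0.05) and with 1 array left out (grey crosses). SPRY1 and DUSP6 stay above 0 and DUSP4 and DUSP5 below 0 in every case, SPRY2 and SPRY4 lie on both sides of 0, and the red circles are the fits with the replicate block.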

How the data were processed

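RNA of 3 pre-control and 3 pre-miR-27a samples of RH36 cells was hybridized to 1-colour arrays. The authors deposited processed intensity values for every spot, from Feature Extraction 10.5.1.1, with a background fitted and subtracted within the array and no normalization between arrays, and quality flags of each spot. The authors also deposited a table of quantile-normalized log2 values. Probe positions in the files are on hg18. Here the processed intensities were log2 transformed and quantile normalized, signals whose spot was not found were left out, replicate spots were averaged, and a probe was kept with at most 1 array missing (17% of the arrays). The groups were compared over all probes with limma 3.58.1 (R 4.3.3, files read with data.table, version 1.17.8), Benjamini-Hochberg adjusted p-values under 0.05 were called, and the procedure was tested on simulated data. Unused per-sample columns numbered 0.

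The replicate numbers come from the labels. They number the arrays within each group and do not say that arrays of the same number belong together. After subtracting the group means, arrays of the same number correlated at 0.396, 0.456 and 0.409 over 31717 probes. Those of other pairs correlated at −0.266 to −0.123. The pairing by number in the fits with the block rests on these correlations, and what gives this likeness was not tested. The comparison without the block is nevertheless the main one, since the study's methods describe a comparison of classes, although its results call it paired, with the blocked value where it bears on a call.

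The genes and lists were chosen with earlier results of these data known, and some genes of the RAS to ERK cascade are not reported here and do not enter its counts. All 8 genes were named with every probe. Genes of the other lists were named where the brightest probe passed the test, otherwise the highest and lowest of the list, and the 3 genes most like SPRY2. Other probes and genes named beside these were chosen after their values were seen. The alternatives were 75th percentile scaling, normexp (offset 50), other filters on dim spots, the deposited log2 table, a limma variance trend with robust estimation, leaving out outlier spots (added after seeing the data), the replicate block, the mean of all probes and leaving out each array.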

Additional observations from a re-analysis of the deposited data

How the results depend on the processing

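Of 128 alternative log2 fold changes of the 8 genes, 116 kept their direction and their side of the threshold, 2 came to pass it and 10 changed sign, all of values that did not pass the test. With the replicate block, 2 of 8 genes, 2 of 10 probes and 2 of 20 ERK-induced genes passed in place of 0, and under the other alternatives these counts stayed at 0. Over all probes the block gave 5421 calls, against 2856 without it. SPRY2 turned to −0.0309 under 75th percentile scaling and ran from −0.0607 to 0.229 when 1 array was left out. SPRY4 turned to 0.00874 under normexp and ran from −0.207 to 0.161 when 1 array was left out. The mean of all probes gave −0.0359 for SPRED1 and −0.0363 for SPRED2, since the brighter and dimmer probes differ in sign. SPRY1 ran from 0.280 to 0.370 over the alternatives with all arrays and from 0.270 to 0.460 with 1 array left out, and DUSP6 from 0.234 to 0.369 and from 0.287 to 0.422. Leaving out pre-control replicate 1 left 1226 calls over all probes and leaving out any other array left 0, so a count of 0 members there says nothing about the members. The dimmer SPRED1 and SPRED2 probes and the DUSP5 probe were well above background on every array. The dimmer SPRED2 probe and the DUSP5 probe each lacked 1 array, whose spot was not found. At 42.56 to 69.36 units, the dimmer SPRED2 probe lay closest to the 22.8 units by which the local background of the groups differed.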
